A study of Verbena bonariensis with 6 samples.

Results

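Class A heat stress factors were followed in roots of Verbena bonariensis, an ornamental garden plant, after growth in soil with cadmium, a toxic metal. They were taken as the gene clusters whose best Swiss-Prot hit is described as a heat stress transcription factor of class A, and 51 of the 8147 regulator clusters in the deposited values met that rule. The cadmium group had 3 root libraries from soil with 100 mg/kg cadmium, harvested after 20 days, and the control group had 3 root libraries from soil to which no cadmium solution was added. All plants were 2 months old, of the cultivar Finesse, with a 14 h photoperiod, and no heat treatment is named in the labels. The growth temperature is given as 24 ± 3 °C in one label and as 25 °C in another, the same for both groups. The labels call the 3 libraries of a group biological replicates, from 15 pots per treatment in an experiment repeated 3 times, without saying how many plants went into a library.

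Heat stress factors are transcription factors that bind heat shock elements in promoters and switch on genes for chaperones, the proteins that refold or hold damaged proteins. Class A members carry activation motifs, while classes B and C lack them, and class B members often act as repressors. In Arabidopsis and tomato, A1 factors start the response to heat and A2 sustains it, and in Arabidopsis A3 is switched on by DREB2A, a factor of the drought and heat response. A4a is known from wheat and rice as a factor that raises tolerance to cadmium.

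All 51 clusters belong to the HSF family in the deposited annotation and 49 carry the Pfam domain of heat stress factors. Their best Swiss-Prot hits were in Arabidopsis for 33 and in rice for 18, under 12 names from A-1 to A-8, and their best hits in the larger NR protein database fell on 18 proteins, 27 clusters on sesame and 19 on monkeyflower proteins. The NR description named class A for 46 clusters and class B or C for 0, and gave no class for 5. The number after the letter was the same in both databases for 36 clusters and another one for 10, so that the names A-1 to A-8 below are those of the closest Swiss-Prot protein and not proven identities. Clusters were between 203 and 4163 bases long (median 1497), and 6 were under 500 bases. Several clusters can come from 1 gene, and the counting may have divided reads among clusters of nearly the same sequence, which makes the value of any one of them less certain.

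Depth was 1092183 to 1228042 regulator counts in the cadmium libraries and 1207479 to 1340255 in the control libraries. Levels are given as CPM, counts scaled to the regulator total of the library, unless FPKM, the authors' length-scaled value, is named. Fold changes are therefore relative to the typical regulator. Regulators took 5.23% to 5.53% of the whole cadmium libraries and 6.45% to 6.52% of the whole control libraries, and scaling to whole libraries shifted the median log2 fold change of all regulators by −0.35. Among root markers, 9 of 12 had at least 10 counts in every library and MYB36 and RSL4 had no cluster. Their summed counts were 5268 to 7309 in cadmium and 4321 to 4468 in control libraries, but single markers went both ways. LBD16, a lateral root gene, had 634 to 883 counts in cadmium and 73 to 127 in control libraries. LBD29 overlapped, at 332 to 453 in cadmium and 392 to 472 in control libraries. SOMBRERO had 453 to 751 in cadmium and 42 to 95 in control libraries. PLT1/PLT2 had 148 to 327 and 26 to 63, and WOX5 had 16 to 20 and 1 to 5, in the same order. These marker counts are not scaled to depth, which differed between libraries. In such counts SCARECROW was also higher in cadmium libraries, BEARSKIN was lower, and LRP1 overlapped. On the CPM scale BEARSKIN overlapped, and LRP1 was higher in cadmium libraries without overlap. SHORT-ROOT, a gene of root patterning, had 826 to 1075 counts in cadmium and 1220 to 1289 in control libraries, but overlapped on the CPM scale. RHD6, a root hair gene, had 11 to 15 in cadmium and 47.5 to 58 in control libraries. Of 10 shoot and flower markers, 7 had no cluster, and GLK1 was the only one with at least 10 counts in every library, at 1761 to 2027 in cadmium and 2726 to 3283 in control libraries. The part of these markers in the results was not tested, and in whole roots fewer cells of a type and less RNA per cell cannot be told apart.

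Summed over all 51 clusters, class A heat stress factors took fewer regulator counts under cadmium. Their summed level was 5820, 5760 and 5395 CPM in the cadmium libraries, against 9013, 9051 and 8878 CPM in the control libraries. The groups did not overlap, and the ratio of means, cadmium over control, was 0.63 within the regulators and 0.495 on the scale of whole libraries. In FPKM the sum was 236 ± 6.95 in cadmium and 552 ± 9.47 in control libraries (SD, n = 3 each). Cluster-9033.107844, of 203 bases, gave 18.6 and 96.9 FPKM of these means, in the same order. Its level per length is uncertain. Over clusters of at least 500 bases the FPKM sum was 198 to 207 in cadmium and 412 to 431 in control libraries. The ratio of means in FPKM was 0.478 for those clusters and 0.428 for all 51. These sums are a description, without a test.

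Of the 51 clusters, 41 passed the filter on low counts and were tested, and 13 changed (31.7%), where 30.5% of all 4844 tested regulator clusters did (edgeR's quasi-likelihood test at an adjusted p below 0.05, by Benjamini and Hochberg over all tested clusters). The total was thus near the background, but its directions were not split as in the background. Class A clusters were higher in cadmium in 2 cases (4.88%) and lower in 11 (26.8%), while 15.8% of all tested clusters were higher and 14.6% lower. At least 2-fold changes numbered 2 higher and 9 lower, where 21.3% of all tested clusters changed at least 2-fold (10.7% higher and 10.6% lower). The median log2 fold change of the tested class A clusters was −0.45, with 26 below and 15 above 0, and that of all tested clusters was −0.08. With whole-library scaling 2 were higher and 16 lower, where 10.9% of all clusters were higher and 23.1% lower. The cadmium and control libraries did not overlap for 22 of the 41 clusters (53.7%), against 53.5% of all tested clusters. DESeq2 called 20 class A clusters, 4 of them higher in cadmium, and limma on log2(FPKM + 1) called 24, 3 of them higher. The shares over all clusters were 43.3% (21.8% higher) with DESeq2 and 44.4% (14.6% higher) with limma. With limma on log2(FPKM + 0.1), 23 were called, 2 of them higher, against 42.1% of all clusters (13.7% higher). At an unadjusted p below 0.05 there were 19, 3 of them higher, against 41.8% of all clusters (20.9% higher). No test of class A as a set was made. Of the 11 lower clusters 7 carry the name A-3. Several clusters can come from 1 gene, so the clusters counted here may not be separate genes, and the split is a description. The number of lower clusters was 7 without control library 1, 7 without control library 2 and 7 without control library 3, and the higher ones numbered 4 without control library 2.

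**Figure D1:**
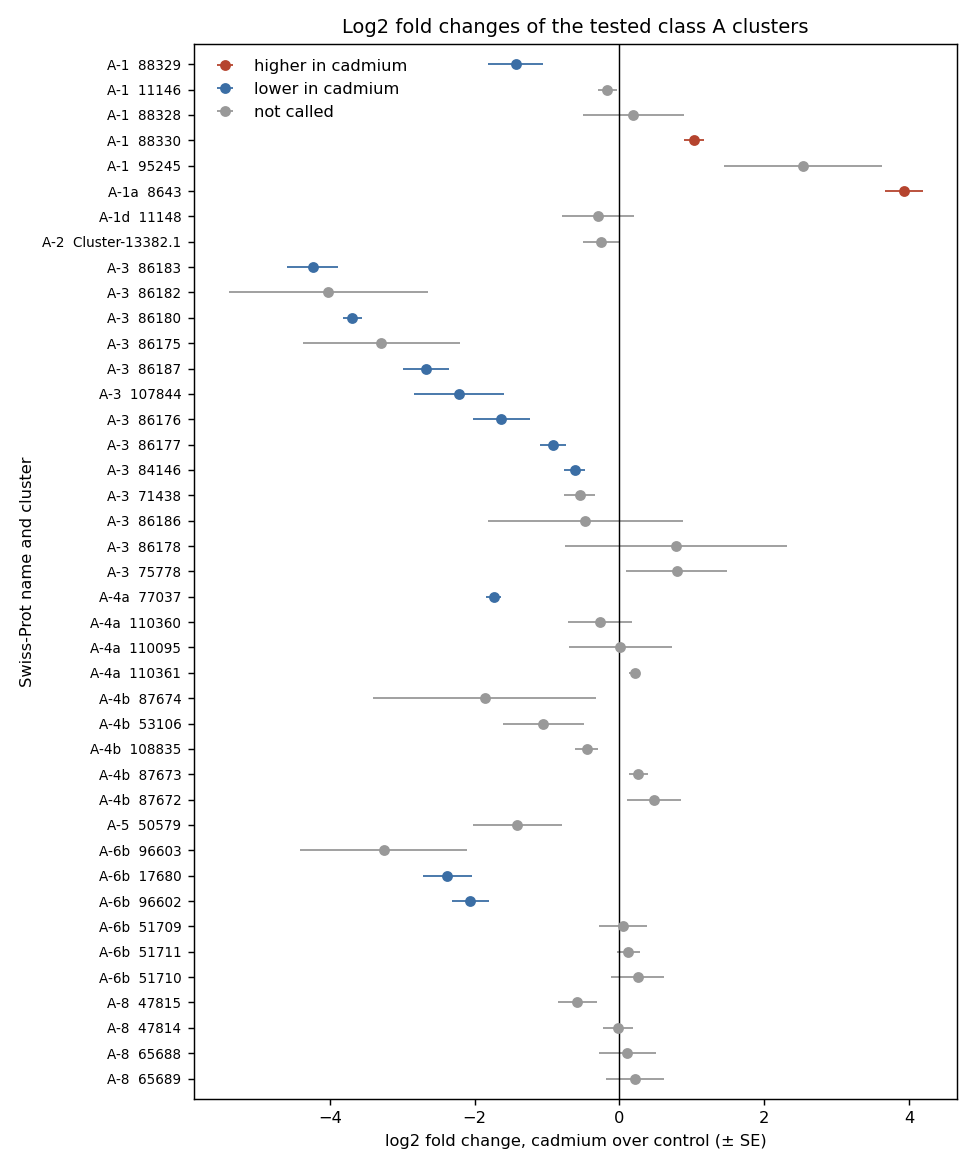
Log2 fold change, cadmium over control, with its standard error, of the 41 tested class A clusters, grouped by Swiss-Prot name on the vertical axis. The 2 clusters higher in cadmium carry the names A-1 and A-1a, and 7 of the 11 lower ones carry the name A-3.

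The make-up of the class differed between the groups. Clusters named A-3 gave 8.60%, 8.22% and 8.60% of all class A counts in the cadmium libraries, against 29.8%, 26% and 31.0% in the control libraries. A-1a gave 6.77%, 7.39% and 7.06% in cadmium and 0.325%, 0.188% and 0.364% in control libraries. The share of A-4b was 22.1% ± 1.57 in cadmium and 13.6% ± 1.46 in control libraries (SD, n = 3 each), although its level hardly differed, since a share also moves with the other names. The groups did not overlap for these 3 names. A-1 and A-4a, the other large names, gave 29.2% ± 3.35 and 20.1% ± 1.15 in cadmium libraries, and 24.4% ± 1.12 and 22.4% ± 2.02 in control libraries.

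**Figure D2:**
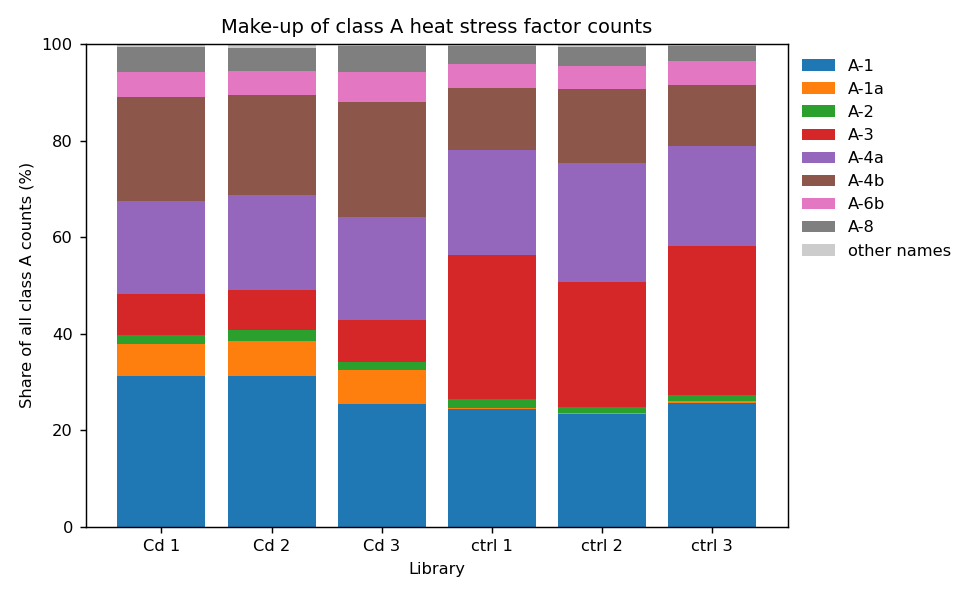
Share of all class A counts (percent, vertical axis) taken by each Swiss-Prot name in the 3 cadmium and the 3 control libraries. The A-3 share lay between 8.22% and 8.60% in cadmium libraries and between 26% and 31.0% in control libraries.

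The 2 class A clusters called as higher carry the names A-1 and A-1a. A-1 factors are the master regulators of the heat response in tomato and Arabidopsis. Counts summed over the name A-1 fell (log2 fold change −0.42, edgeR, adjusted p = 0.00405). The only cluster named A-1a, Cluster-9033.8643 (1145 bases), had 394, 426 and 381 CPM in the cadmium libraries, against 29.3, 17 and 32.3 CPM in the control libraries. All 3 cadmium libraries were far above the control libraries. Its log2 fold change of 3.93 ± 0.26 (SE, n = 3 each) is a 15.2-fold higher level (edgeR, adjusted p = 0.00023). Its class is uncertain. Its best NR protein, a monkeyflower protein with no named class, was shared with Cluster-9033.155903, which Swiss-Prot names B-1, a class B factor. Cluster-9033.155903 had 30.5, 48.7 and 20.8 CPM in cadmium and 2.19, 3.24 and 0 CPM in control libraries (log2 fold change 4.12 ± 1.03, SE; edgeR, adjusted p = 0.0272). That call ended without cadmium library 1, 2 or 3 or control library 1 or 2 (edgeR, adjusted p between 0.0565 and 0.0983).

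The 8 clusters named A-1 included 5 that were tested, 1 higher and 1 lower in cadmium. Cluster-9033.88330 (1931 bases) had 639, 725 and 598 CPM in the cadmium libraries, against 370.2, 287 and 299.6 CPM in the control libraries. It rose without overlap, by 1.03 ± 0.14 on the log2 scale (edgeR, adjusted p = 0.00253). Cluster-9033.88329 (2525 bases) had 787, 585 and 253 CPM in the cadmium libraries, against 1369, 1527 and 1470 CPM in the control libraries. It fell without overlap, cadmium library 3 being the lowest, with a log2 fold change of −1.43 ± 0.38 (edgeR, adjusted p = 0.0357). That call ended without cadmium library 2 (adjusted p = 0.1) and without control library 1, 2 or 3 (edgeR, adjusted p = 0.0878, 0.0969 and 0.0914). Both clusters have the same best NR protein, the monkeyflower A-1 factor. Of that protein's counts Cluster-9033.88330 took 46.6% ± 6.96 in cadmium and 16.5% ± 2.38 in control libraries, and Cluster-9033.88329 took 36.4% ± 13.1 in cadmium and 75.4% ± 5.38 in control libraries (SD, n = 3 each). The difference between a cluster and the others of its protein did not pass the test for either one (edgeR's diffSpliceDGE, adjusted p = 0.113 for Cluster-9033.88330 and 0.269 for Cluster-9033.88329). Summed over that protein, counts fell, with a log2 fold change of −0.44 (edgeR, adjusted p = 0.0147), so Cluster-9033.88330 rose while the sum for its protein did the opposite. The fall of the sum was −0.27 without cadmium library 3 and did not pass without control library 3 (edgeR, adjusted p = 0.0521).

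The other clusters of this group did not pass the test. Cluster-9033.95245 (A-1) had 95.0, 31.8 and 72.7 CPM in cadmium and 5.85, 27.5 and 0.808 CPM in control libraries, with a log2 fold change of 2.54 ± 1.09 (edgeR, adjusted p = 0.134). It passed without control library 2, with a log2 fold change of 4.26 (edgeR, adjusted p = 0.0419). Cluster-9033.88328 (A-1) varied within both groups, with 91.6, 216 and 193 CPM in cadmium and 176, 31.6 and 230.2 CPM in control libraries. Cluster-9033.11146 (A-1), whose NR protein is the sesame factor HSF8, had 196, 227 and 249 CPM in cadmium and 264, 233 and 260.1 CPM in control libraries (log2 fold change −0.17, edgeR, adjusted p = 0.39). The single A-1d cluster, Cluster-9033.11148, had 16.1, 22.5 and 11.2 CPM in cadmium and 17.6, 27.5 and 16.2 CPM in control libraries (log2 fold change −0.30, edgeR, adjusted p = 0.7). The groups overlapped for these clusters, with the exception of Cluster-9033.95245.

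A-2, which sustains the heat response in Arabidopsis, was not called. Cluster-13382.1 had 95.0, 119.8 and 89.1 CPM in the cadmium libraries, against 158, 96.3 and 106 CPM in the control libraries. The groups overlapped, and the log2 fold change was −0.25 ± 0.25 (edgeR, adjusted p = 0.519). The other A-2 cluster and the 2 clusters each of A-2b and A-2e, names of rice factors, did not pass the filter on low counts. The most abundant of these by name, Cluster-9033.4393 (A-2b) and Cluster-9033.104405 (A-2e), averaged 0.390 ± 0.331 and 0.273 ± 0.344 FPKM in cadmium libraries, and 0.233 ± 0.206 and 0.350 ± 0.0781 FPKM in control libraries (SD, n = 3 each).

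A-3, the factor that acts downstream of DREB2A in Arabidopsis, showed the largest changes among the class A names with several clusters. Of 14 clusters 13 were tested, 7 were lower in cadmium (53.8%) and 0 higher, where 14.6% of all tested clusters were lower and 15.8% higher. The count of higher clusters was also 0 at an unadjusted p below 0.05, with DESeq2 and with limma on log2(FPKM + 1). Cluster-9033.86180 (1397 bases), the most abundant of them in counts, had 119.6, 103 and 101 CPM in the cadmium libraries, against 1468, 1219 and 1484 CPM in the control libraries. Every control library was far above every cadmium library, and the log2 fold change of −3.69 ± 0.13 (SE, n = 3 each) is a 12.9-fold lower level (edgeR, adjusted p = 2.7e-05). In FPKM it averaged 4.79 ± 0.356 in cadmium and 78.4 ± 9.62 in control libraries (SD, n = 3 each). Cluster-9033.86183 (955 bases) had 33.1, 13.1 and 19.9 CPM in the cadmium libraries, against 465, 364 and 433 CPM in the control libraries. It fell 19.0-fold without overlap, with a log2 fold change of −4.24 ± 0.35 (edgeR, adjusted p = 0.000494).

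The other changed A-3 clusters were less abundant or changed less. Cluster-9033.86187 (2829 bases) had 14.4, 12.2 and 10.4 CPM in the cadmium libraries, against 66.6, 96.3 and 73.5 CPM in the control libraries, a log2 fold change of −2.67 ± 0.32 (edgeR, adjusted p = 0.00189). Cluster-9033.86177 (3648 bases) had 72.9, 81.4 and 94.3 CPM in the cadmium libraries, against 151, 177 and 143 CPM in the control libraries, a log2 fold change of −0.92 ± 0.18 (edgeR, adjusted p = 0.0113). Both fell without overlap. Cluster-9033.84146 (1244 bases) had 105, 127 and 112 CPM in cadmium and 170.4, 167 and 191 CPM in control libraries, a log2 fold change of −0.62 ± 0.15 (edgeR, adjusted p = 0.0234). This modest fall did not pass without cadmium library 1 or 3 or without control library 1, 2 or 3 (edgeR, adjusted p = 0.0772, 0.0671, 0.06, 0.0551 and 0.0757).

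Both of the shortest changed clusters carried the name A-3. Cluster-9033.86176 (360 bases) had 13.6, 12.2 and 22.5 CPM in cadmium and 54.9, 51.8 and 42.8 CPM in control libraries, a log2 fold change of −1.63 ± 0.39 (edgeR, adjusted p = 0.0237). It did not pass without cadmium library 1 or 2 or without control library 1, 2 or 3 (edgeR, adjusted p = 0.0727, 0.0703, 0.0909, 0.0754 and 0.0534). Cluster-9033.107844 (203 bases) had 2.54, 1.87 and 1.73 CPM in cadmium and 9.51, 9.72 and 10.5 CPM in control libraries, a log2 fold change of −2.22 ± 0.62 (edgeR, adjusted p = 0.0402). Its groups lay apart, but its call ended whichever of cadmium libraries 1, 2 and 3 and control libraries 1, 2 and 3 was left out (edgeR, adjusted p between 0.114 and 0.156). Its FPKM, 18.6 ± 2.11 in cadmium and 96.9 ± 10.3 in control libraries (SD, n = 3 each), are the highest of the name, yet it is shorter than the 227 to 241 bases that the authors' FPKM take off the length, so its level per length is uncertain. The best NR protein of this cluster is a Brassica rapa heat shock factor with no named class. The other tested A-3 clusters have sesame or monkeyflower proteins as best NR hits.

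Some A-3 clusters showed a wide difference that was not called. Cluster-9033.86175 had 27.1, 19.7 and 0 CPM in cadmium and 148, 114 and 198 CPM in control libraries, a log2 fold change of −3.29 ± 1.08 (edgeR, adjusted p = 0.066). Cluster-9033.86182 had 0, 0 and 6.06 CPM in cadmium and 24.1, 38.1 and 41.2 CPM in control libraries (edgeR, adjusted p = 0.0749). The groups did not overlap for either, and both passed without cadmium library 3 (edgeR, adjusted p = 0.0081 for Cluster-9033.86175 and 0.0105 for Cluster-9033.86182). The highest log2 fold change of an A-3 cluster was 0.79 ± 0.70, for the 332-base Cluster-9033.75778 (edgeR, adjusted p = 0.451).

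**Figure D3:**
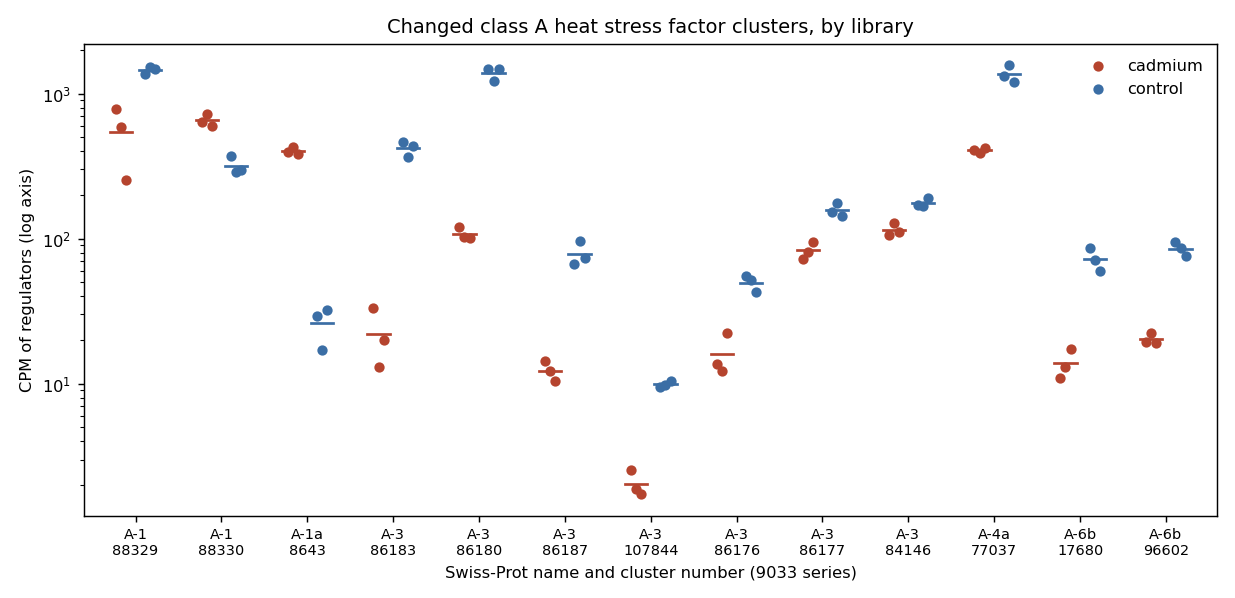
CPM of regulators on a log axis for the 13 changed class A clusters in each of the 3 cadmium libraries (left of each pair) and the 3 control libraries, with a bar at each group's mean. The groups do not overlap for any of the 13, and Cluster-9033.88329 has the widest spread, from 253 to 787 CPM in cadmium libraries.

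A-4a and A-4b factors, named for the A4 group to which the cadmium tolerance factor of wheat and rice belongs, were divided. Cluster-9033.77037 (A-4a, 1490 bases) had 411, 392 and 419 CPM in the cadmium libraries, against 1322, 1564 and 1206 CPM in the control libraries. It fell 3.35-fold without overlap, with a log2 fold change of −1.74 ± 0.11 (edgeR, adjusted p = 0.000207). The other A-4a clusters did not pass. Cluster-9033.110361 was the most abundant of these, with 628, 645 and 657 CPM in cadmium and 573, 517 and 583 CPM in control libraries (log2 fold change 0.21 ± 0.08, edgeR, adjusted p = 0.104). It passed with DESeq2, but its log2 fold change was −0.14 with whole-library scaling (edgeR, adjusted p = 0.277), and its mean FPKM was 18.2 ± 0.758 in cadmium and 20.0 ± 1.62 in control libraries (SD, n = 3 each). Its NR protein is another one, the monkeyflower factor A-4c.

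None of the 5 A-4b clusters, all tested, was called by edgeR, while 1 passed at an unadjusted p below 0.05, 1 with DESeq2 and 3 with limma on log2(FPKM + 1). Cluster-9033.87673 (1872 bases), with the highest FPKM of all class A clusters in cadmium libraries (28 ± 1.17, against 29.5 ± 4.76 in control libraries; SD, n = 3 each), had 866, 887 and 905 CPM in the cadmium libraries, against 697, 887 and 631 CPM in the control libraries. The groups overlapped through control library 2. Its log2 fold change was 0.26 ± 0.13 (edgeR, adjusted p = 0.195), 0.41 without control library 2 (edgeR, adjusted p = 0.0287) and −0.08 with whole-library scaling. Cluster-9033.87674 had 84.8, 1.87 and 0 CPM in cadmium and 83.4, 111 and 122 CPM in control libraries. Cadmium library 1 stood with the control libraries there, and the cluster passed without it (edgeR, adjusted p = 0.42 with it and 0.00961 without it). The single A-5 cluster, named for a factor described in Arabidopsis as a repressor of A4, had few counts. Its best NR protein is a sesame A-4b-like factor, so its place as A-5 is uncertain. Cluster-9033.50579 had 4.24, 11.2 and 5.19 CPM in cadmium and 19.8, 21.9 and 13.7 CPM in control libraries, a log2 fold change of −1.41 ± 0.61 (edgeR, adjusted p = 0.136) with no overlap.

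A-6b, linked to abscisic acid signalling in Arabidopsis, had 2 of 6 clusters lower in cadmium (33.3%) and 0 higher. Of all tested clusters 14.6% were lower and 15.8% higher. No A-6b cluster was higher at an unadjusted p below 0.05, with DESeq2 or with limma on log2(FPKM + 1) either. Cluster-9033.17680 (1508 bases) had 11, 13.1 and 17.3 CPM in the cadmium libraries, against 86.3, 71.2 and 59.8 CPM in the control libraries, a log2 fold change of −2.38 ± 0.34 (edgeR, adjusted p = 0.00361). Cluster-9033.96602 (1667 bases), whose best NR protein is the sesame factor A-7a, had 19.5, 22.5 and 19.0 CPM in the cadmium libraries, against 94.4, 85.8 and 75.9 CPM in the control libraries, a log2 fold change of −2.06 ± 0.26 (edgeR, adjusted p = 0.00223). Both fell without overlap. The most abundant A-6b cluster, Cluster-9033.51711 (1119 bases), had 202, 190.0 and 248 CPM in cadmium and 182, 219 and 187 CPM in control libraries. Its groups overlapped, and the log2 fold change was 0.12 ± 0.16 (edgeR, adjusted p = 0.606), or −0.22 with whole-library scaling.

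A-8, a factor tied to redox signals in Arabidopsis, had no called cluster among its 4, also 0 at an unadjusted p below 0.05 and 0 with DESeq2, and 1 with limma on log2(FPKM + 1). Cluster-9033.47814 (1787 bases) had 146, 147 and 149.7 CPM in the cadmium libraries, against 136, 194 and 117 CPM in the control libraries. The cadmium values lay inside the range of the control values, and the log2 fold change was −0.02 ± 0.21 (edgeR, adjusted p = 0.965).

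Sums over all clusters of a name show what is left when reads may have been split between clusters. Of the 12 names 10 passed the filter, and 6 changed, 1 higher and 5 lower, where 64.7% of all 1210 tested names changed, 32.8% higher and 31.9% lower (edgeR on sums, adjusted over all names). The A-3 sum was 509.6, 481 and 472 CPM in the cadmium libraries, against 2790.2, 2417 and 2826 CPM in the control libraries, a log2 fold change of −2.46 ± 0.08 (edgeR, adjusted p = 4.59e-09). The A-4a sum was 1152 ± 16.2 CPM in cadmium and 2072 ± 204 CPM in control libraries, a log2 fold change of −0.85 ± 0.08 (edgeR, adjusted p = 6.25e-06). The A-1 sum was 1686 ± 256 CPM in cadmium and 2264 ± 80.9 CPM in control libraries (SD, n = 3 each), a log2 fold change of −0.42 ± 0.10 (edgeR, adjusted p = 0.00405). All 3 sums lay below every control library in each cadmium library.

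The A-6b sum was 313 ± 25.4 CPM in cadmium and 451 ± 14.9 CPM in control libraries (SD, n = 3 each), a log2 fold change of −0.53 ± 0.10 (edgeR, adjusted p = 0.000732). A-5, a single cluster, passed among the sums with a log2 fold change of −1.45 ± 0.49 (edgeR, adjusted p = 0.0238). It did not pass without cadmium library 1 or 3 or control library 1 or 2 (edgeR, adjusted p = 0.09, 0.0775, 0.0721 and 0.079). A-1a, also a single cluster, was the only sum higher in cadmium (log2 fold change 3.90, edgeR, adjusted p = 4.98e-08). The sums of A-4b, A-8, A-2 and A-1d did not pass, with log2 fold changes of 0.01 ± 0.09, −0.18 ± 0.11, −0.24 ± 0.21 and −0.32 ± 0.41. With whole-library scaling A-4b (−0.32, adjusted p = 0.0047), A-8 (−0.50, adjusted p = 0.00172) and A-2 (−0.57, adjusted p = 0.0361) passed as lower (edgeR), and A-8 passed without control library 3 (edgeR, adjusted p = 0.0478).

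**Figure D4:**
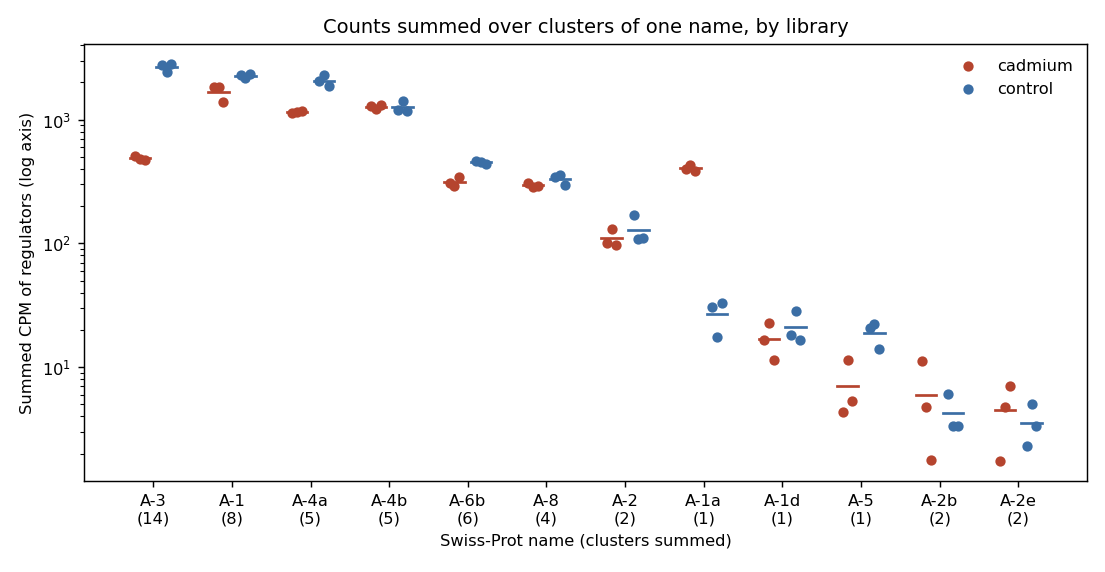
CPM of regulators on a log axis, summed over all clusters of each Swiss-Prot name (number of clusters in brackets), in the 3 cadmium libraries (left of each pair) and the 3 control libraries, with a bar at each mean. A-3 lies between 472 and 509.6 CPM in cadmium libraries and between 2417 and 2826 CPM in control libraries, and A-1a is the one name far higher in cadmium libraries.

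Sums over the best NR protein regroup the same clusters and add clusters that carry other names. Of the 18 NR proteins of class A clusters, some too scarce to test, 9 changed, and only that of Cluster-9033.8643 was higher. Of all 2050 NR proteins tested, 60.3% changed, 30.3% higher and 30.0% lower. The A-3 clusters split into 2 main proteins. The monkeyflower A-3 factor, with 3 clusters including Cluster-9033.86180, fell to 124 ± 19.8 CPM in cadmium libraries, against 1566 ± 190 CPM in control libraries (SD, n = 3 each), a log2 fold change of −3.65 ± 0.14 (edgeR, adjusted p = 6.68e-08). The sesame A-3-like factor fell less, to 872 ± 31.6 CPM in cadmium libraries, against 1706 ± 70.8 CPM in control libraries, a log2 fold change of −0.97 ± 0.07 (edgeR, adjusted p = 2.94e-06). That protein has 11 clusters, 9 of class A name and 2 whose Swiss-Prot name is CTR1, a protein kinase of ethylene signalling. The larger of these, Cluster-9033.86179 (3992 bases), had 481, 526 and 429.9 CPM in cadmium and 689, 678 and 591 CPM in control libraries. Its fall (log2 fold change −0.45 ± 0.11, edgeR, adjusted p = 0.0265) did not pass without cadmium library 1 or 3 or control library 1 or 2 (edgeR, adjusted p between 0.0735 and 0.0882). It made up 54.3% ± 3.67 of the protein's counts in cadmium and 37.9% ± 2.56 in control libraries, so this sum mixes class A with kinase-named sequence.

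The sesame A-4b-like factor, which joins Cluster-9033.77037 with 4 A-4b clusters and 1 named HSF8, fell by 0.63 on the log2 scale (edgeR, adjusted p = 0.000303). The monkeyflower A-4c factor, which holds the other 4 A-4a clusters, had a log2 fold change of 0.17 ± 0.07 and did not pass (edgeR, adjusted p = 0.0657). Cluster-9033.77037, the A-4a cluster that fell, thus lay under another NR protein than the rest of its name. The A-6b clusters also lay under several NR proteins. The sesame A-7a factor (log2 fold change −2.27 ± 0.23, edgeR, adjusted p = 2.67e-05) and the sesame A-6b-like factor (−0.81 ± 0.17, edgeR, adjusted p = 0.0028) fell, while the sesame A-6b factor, with Cluster-9033.51711 alone, did not pass. A second sesame A-4b-like factor has 5 sparse clusters, which carry the Swiss-Prot names A-1, A-4b and A-5. Its sum fell to 18.0 ± 7.52 CPM in cadmium libraries, against 41.4 ± 3.70 CPM in control libraries (edgeR, adjusted p = 0.0203). It did not pass without cadmium library 1 (adjusted p = 0.0596) or control library 2 (edgeR, adjusted p = 0.0604).

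The clusters of a protein were also compared with each other. Of 37 class A clusters with a partner, 1 changed unequally, where 3.32% of the 3978 clusters tested in all did (edgeR's diffSpliceDGE, adjusted over all). That cluster was Cluster-9033.86183 of the sesame A-3-like protein, which changed by −3.28 on the log2 scale relative to the protein's other clusters (diffSpliceDGE, adjusted p = 1.77e-09). Those other clusters include the CTR1-named Cluster-9033.86179, with 54.3% of the protein's counts in cadmium and 37.9% in control libraries. The comparison is thus not with class A clusters alone. Cluster-9033.86183 took 3.79%, 1.43% and 2.33% of the protein's counts in the cadmium libraries, against 26.1%, 21.5% and 25.7% in the control libraries. The groups did not overlap. In the sesame A-4b-like protein, Cluster-9033.77037 took 22.8% ± 0.326 in cadmium and 49.3% ± 0.327 in control libraries, and Cluster-9033.87673 took 49.7% ± 1.80 in cadmium and 26.6% ± 1.36 in control libraries (SD, n = 3 each). Those shares did not overlap either, but the relative changes of −1.11 and 0.89 on the log2 scale did not pass (diffSpliceDGE, adjusted p = 0.0739 for Cluster-9033.77037 and 0.212 for Cluster-9033.87673).

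**Figure D5:**
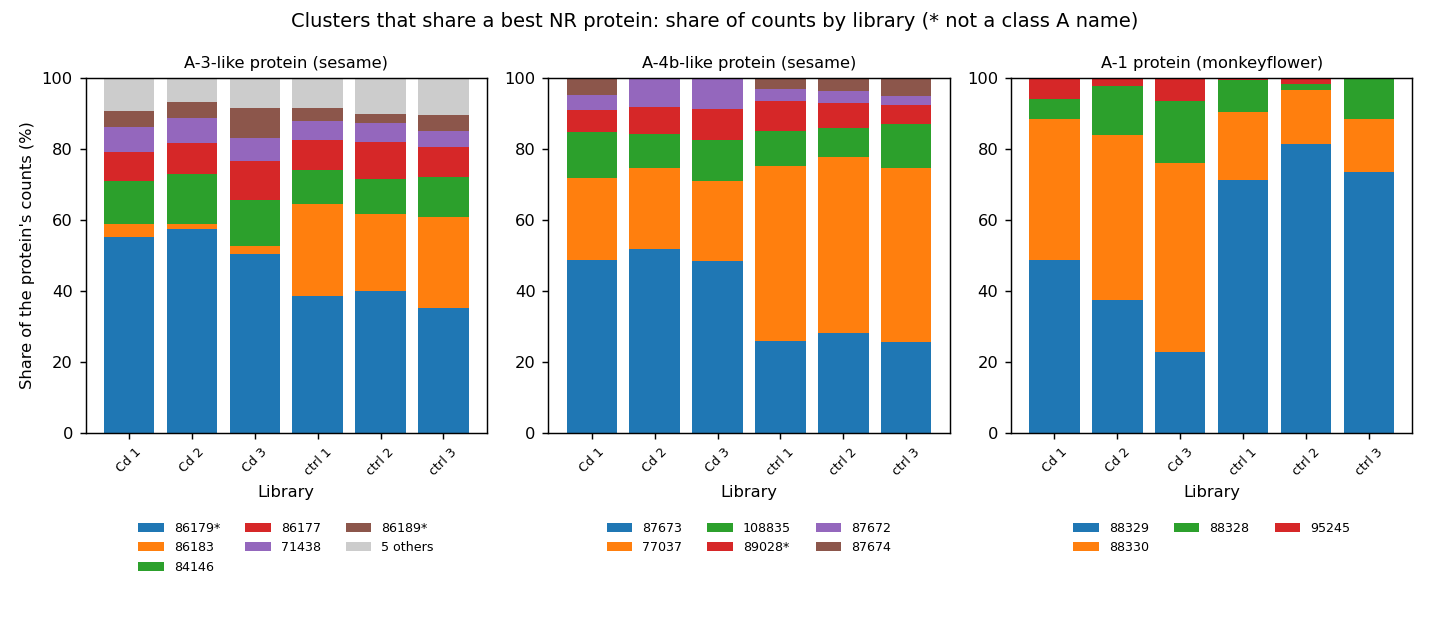
Share of a protein's counts (percent, vertical axis) taken by each of its clusters in the 3 cadmium and the 3 control libraries, for 3 NR proteins; a star marks clusters whose Swiss-Prot name is not of class A. In the sesame A-3-like protein Cluster-9033.86183 takes 1.43% to 3.79% in cadmium and 21.5% to 26.1% in control libraries.

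The members left out by the filter were scarce in all libraries. These 10 clusters reached at most 46.75 counts and 2.30 FPKM in any library, and none of the 51 was at 0 in every library. In the authors' deposited table, 3 of the 51 clusters were higher and 12 lower in cadmium at a q-value below 0.05, where 19.1% of the 7697 clusters with a q-value did (8.95% higher and 10.2% lower). Of these calls 10 were shared with the edgeR calls here, in the same direction, which is 66.7% of the calls in the authors' deposited table and 76.9% of those made here. In the authors' deposited table Cluster-9033.86180 had a log2 ratio of −3.77 (q = 3.95e-71) and Cluster-9033.8643 one of 3.85 (q = 2.12e-32).

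The other heat stress factors of the table, 64 clusters, had 11 higher (24.4%) and 7 lower (15.6%) of 45 tested, with a median log2 fold change of 0.03. Of all tested clusters 15.8% were higher and 14.6% lower. With whole-library scaling 7 were higher and 7 lower, with a median of −0.36, where 10.9% of all clusters were higher and 23.1% lower. Among them, clusters named for class B or C, which lack the activation motifs, had 9 higher (33.3%) and 3 lower (11.1%) of 27 tested. With whole-library scaling these were 6 higher and 3 lower. The 10 clusters of the HSF family with another description went the other way, with 0 higher and 4 lower of 7 tested. None of those 10 was higher at an unadjusted p below 0.05, with DESeq2 or with limma on log2(FPKM + 1). No test compared the classes with each other. B-3 (Cluster-9033.90301) had 1090, 1121 and 817 CPM in the cadmium libraries, against 188, 228 and 222 CPM in the control libraries, a rise of 2.25 ± 0.16 on the log2 scale (edgeR, adjusted p = 0.000267). The factor named for tomato HSF24 (Cluster-9033.93133), which is classed with B1 factors, had 3132, 3036 and 2911 CPM in cadmium and 1085, 937.5 and 1038 CPM in control libraries (log2 fold change 1.57 ± 0.07, edgeR, adjusted p = 8.54e-05). B-2b (Cluster-9033.109884, log2 fold change −0.84 ± 0.11) and C-1 (Cluster-9033.124354, −2.70 ± 0.34) fell. Clusters named for tomato HSF8 and HSF30, A1 and A2 factors that the name rule does not take in, gave 1 higher of 5 tested for HSF8 and 0 called of 5 tested for HSF30 (0 at an unadjusted p below 0.05, 1 with DESeq2 and 1 with limma). The HSF8 call, Cluster-9033.11142 (0.72 ± 0.21, edgeR, adjusted p = 0.0462), chosen for mention after its values were seen, ended whichever of cadmium libraries 1, 2 and 3 and control libraries 1, 2 and 3 was left out (edgeR, adjusted p between 0.0541 and 0.135), and with whole-library scaling (log2 fold change 0.37, edgeR, adjusted p = 0.235).

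Regulators known to act with class A factors were read from the same fit. Their counts stand against 15.8% higher and 14.6% lower among all tested clusters, or 10.9% and 23.1% with whole-library scaling. The DREB2 group, which in Arabidopsis holds the activator of A3, had 2 higher and 1 lower of 6 tested. DREB2D (Cluster-9033.8884) had 46.6, 88.0 and 65.7 CPM in the cadmium libraries, against 1.46, 1.62 and 3.23 CPM in the control libraries, a log2 fold change of 4.93 ± 0.52 (edgeR, adjusted p = 0.00121). The groups lay far apart, in the direction opposite to A-3. This cluster carries the name DREB2D and not DREB2A, the factor that switches on A3 in Arabidopsis. A DREB2B cluster, Cluster-9033.134232, rose by 1.77 ± 0.26 (edgeR, adjusted p = 0.00419). Another DREB2B cluster, Cluster-9033.103028, fell by 0.42 on the log2 scale (edgeR, adjusted p = 0.0146) and did not pass without cadmium library 1 or 2 or control library 1 or 3 (edgeR, adjusted p between 0.0529 and 0.0629). WRKY25, WRKY26 and WRKY33, factors of heat and defence responses, had 9 lower and 0 higher of 11 tested, and 0 higher at an unadjusted p below 0.05, with DESeq2 or with limma. A WRKY33 cluster, Cluster-9033.83741, had 1086 ± 27.5 CPM in cadmium and 3437 ± 368 CPM in control libraries (SD, n = 3 each), a log2 fold change of −1.66 ± 0.09 (edgeR, adjusted p = 0.000117).

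The membrane-bound factors of the unfolded protein response, bZIP17, bZIP28 and bZIP60, had 4 higher and 2 lower of 9 tested, or 1 higher and 2 lower with whole-library scaling. A bZIP17 cluster fell (Cluster-9033.74516, log2 fold change −1.56 ± 0.07, edgeR, adjusted p = 6.37e-05) and a bZIP60 cluster rose (Cluster-9033.138744, 1.08 ± 0.09, edgeR, adjusted p = 0.000531). A second bZIP17 cluster, Cluster-9033.69367, rose by 0.57 ± 0.12 (edgeR, adjusted p = 0.0156) and did not pass without control library 1 (adjusted p = 0.0615) or 2 (edgeR, adjusted p = 0.0576), nor with whole-library scaling (log2 fold change 0.22, edgeR, adjusted p = 0.238). JUNGBRUNNEN 1, a NAC factor that in Arabidopsis acts through DREB2A, had 1 higher and 0 lower of 4 tested (Cluster-9033.135686, 1.73 ± 0.26, edgeR, adjusted p = 0.00409). No JUNGBRUNNEN 1 cluster was lower at an unadjusted p below 0.05, with DESeq2 or with limma. STOP1, known from Arabidopsis for aluminium and acid tolerance of roots, had 2 higher of 3 tested, Cluster-9033.102737 (1.21 ± 0.08, edgeR, adjusted p = 0.000189) and Cluster-9033.74616 (0.55 ± 0.09, edgeR, adjusted p = 0.00669). With whole-library scaling 1 was higher and 1 lower, and Cluster-9033.74616 did not pass (log2 fold change 0.20, edgeR, adjusted p = 0.145). MBF1, a coactivator of the heat response, had 0 called of 6 tested, 3 at an unadjusted p below 0.05, 3 with DESeq2 and 2 with limma. With whole-library scaling 0 were higher and 2 lower. ABI3 and NF-YC10 had no cluster of that name here.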

How the data were processed

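RNA was sequenced from 3 cadmium and 3 control root libraries, and the values of transcription regulators were used. Expected counts per cluster were deposited by the authors unscaled, as read counts per the file headers, and 86.9% of those above 0 have decimals. FPKM were deposited by the authors, per the file headers. Their scaling over whole libraries was inferred from count, FPKM and length. The log2 ratio and q-value of cadmium against control were deposited by the authors, by a test that those headers do not name. The alignment score of the best Swiss-Prot hit is the authors' deposited value. Bowtie2 2.0.6 and TopHat2 2.0.12 appear in the submitters' processing notes without a role; assembler and counter were not given in the sources used here.

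Counts were rounded to whole numbers. The test was edgeR 4.0.16 (R 4.3.3): filterByExpr by group (minimum count 10, total 15), TMM within the regulators, quasi-likelihood fits on group alone, and adjustment by Benjamini and Hochberg over all 4844 clusters tested, at 0.05. The common biological coefficient of variation was 0.573. SE is the log2 fold change over the square root of F. CPM are scaled to TMM-adjusted regulator totals. Whole-library totals (20389599 to 23342907 fragments in cadmium, 18635515 to 20558946 in control) were recovered from count, FPKM and length. Counting error falls with depth, so clusters with few counts are less certain. Unequal change within a protein used edgeR's diffSpliceDGE. The fits were tested on simulated counts. Python 3.11.15 with pandas 2.3.3 and matplotlib 3.10.9 prepared tables and figures.

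Alternatives were RLE size factors, whole-library totals, no filter, 5 CPM in 3 libraries, DESeq2 1.42.0, limma-trend 3.58.1 on log2(FPKM + 1) and log2(FPKM + 0.1), a replicate block, leaving out single libraries, and sums by Swiss-Prot name or NR protein. For the summed class A level, whole-library totals and leaving out libraries were chosen after seeing the data. Members and lists were chosen with earlier results of these data known. Named are all changed members, the cluster of highest mean FPKM of each Swiss-Prot name, and from each related group up to 2 higher and 2 lower clusters with the smallest adjusted p. Other members are named after their values were seen, for their spread, their abundance or their shared protein. No genome was given, so coordinates and sequences are not used here.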

Additional observations from a re-analysis of the deposited data

How the results depend on the processing

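Of the 13 changed class A clusters, 8 were called under each of the 14 alternatives run on single clusters, and all 13 kept their direction under each of them. The count of changed class A clusters was 20 with DESeq2, 23 with limma on log2(FPKM + 0.1), 24 with limma on log2(FPKM + 1) and between 9 and 13 with 1 library left out. Over all regulators the main count of 1476 became 2094, 2041 and 2149 with these 3 settings, in the same order, and between 1136 and 1215 with 1 library left out. Leaving out 1 library leaves a group of 2, and the count of changed names was then 5 to 7. The summed class A ratio was 0.495 with whole-library totals and 0.621 to 0.645 with 1 library left out. Clusters with unequal change numbered 6 when grouped by Swiss-Prot name, and 1 to 2 with 1 library left out. The cause of these moves was not tested.

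With the replicate number as a block, 8 class A clusters and 886 of all regulators changed. The numbers did not pair the samples, with correlations of the deviations of same-numbered libraries of 0.005, 0.029 and −0.004.

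Among the named members and the sums, signs turned only in values that had not passed the test, with the exception of Cluster-9033.88330, whose NR sum was −0.44. With whole-library totals Cluster-9033.87673 had −0.08, Cluster-9033.51711 −0.22, the A-4b sum −0.32, and the NR sums of HSF8, A-6b and A-4c had −0.26, −0.22 and −0.18. With limma on log2(FPKM + 0.1) and log2(FPKM + 1), Cluster-9033.87673 had −0.07 and −0.06 and Cluster-9033.51711 had −0.22 and −0.21. The NR sum of Cluster-9033.87673 was −0.63. The A-4b sum was −0.01 with DESeq2, −0.01 with RLE size factors and −0.02 with no filter, and between −0.07 and 0.09 with 1 library left out. Cluster-9033.47814 had 0.02 under the block and −0.16 to 0.22 with 1 library left out. The same range was −0.38 to 0.02 for Cluster-13382.1, −0.39 to 0.01 for the A-2 sum and −0.35 to 0.03 for its NR sum.

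The filter on low counts left 10 members out; with no filter all 51 were tested, 2 higher and 10 lower. Cluster-9033.110361, not called in the main test, had −0.14 with whole-library totals.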
